A study of Brachypodium distachyon with 6 samples.

Results

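The TIFY group of the *B. distachyon* root transcriptome described here comprises 4 probable TIFY genes (Bradi3g23180, Bradi3g23190, Bradi5g08650 and Bradi3g36380) together with Bradi1g72610. The study lists Bradi1g72610, Bradi3g23180, Bradi3g23190 and Bradi5g08650 under regulation of jasmonate signalling, but not Bradi3g36380. All 5 genes were found by their identifiers among the 19538 genes of the deposited table. They were selected on the difference between pruned and intact roots in these same 6 libraries, as genes that the study lists as differentially expressed, so their differences between pruned and intact roots are given as a description and carry no test. Root RNA was sequenced as 3 libraries of pruned plants and 3 libraries of intact plants of the inbred line Bd21. Seedlings were raised for 2 weeks on agar medium with sucrose, 20 seeds to a box, under long days, and in each box one part of the seedlings was cut with scissors down to a stub while the rest of the box stayed uncut. Roots of both groups were collected 2 days after the cutting. The study calls the 3 libraries of a group biological replicates, and how many plants went into each is not given in the sources used here.

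TIFY proteins are named after a short conserved motif in their central domain. In *Arabidopsis*, a subfamily of them, the JAZ proteins, holds jasmonate-responsive transcription factors such as MYC2 inactive by recruiting co-repressors. The active hormone, a conjugate of jasmonic acid with isoleucine, brings JAZ proteins to the F-box protein COI1, which leads to their degradation and releases the transcription factors. Many JAZ genes are themselves induced by jasmonate and by wounding in *Arabidopsis*, so that the repressors are made anew once the response has started. Jasmonate is best known for responses to wounding and herbivory and for inhibition of root growth.

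The names rest on an inference. The supplementary tables of the study list 5 names with their NCBI gene numbers beside the 5 identifiers, but 4 of the 5 gene numbers lie on another chromosome in RefSeq than the identifier printed beside them. By RefSeq, 1 gene number is on chromosome 1, 3 are on chromosome 3 and 1 is on chromosome 5, which is also how the 5 identifiers divide. The gene number of TIFY 9 is the one on chromosome 5, as is Bradi5g08650. The gene number called uncharacterized is the one on chromosome 1, as is Bradi1g72610. Of the 3 on chromosome 3, both called TIFY 3A-like follow each other directly in the order of RefSeq genes, as the identifiers Bradi3g23180 and Bradi3g23190 do, which leaves TIFY 6B-like for Bradi3g36380. Another table of the study annotates Bradi5g08650 as an abscisic acid receptor, whereas its gene ontology list places the same identifier under transcription corepressor activity. The study's jasmonate and wounding lists hold Bradi1g72610 but not Bradi3g36380. For these genes the lists thus go with the printed names, TIFY 6B-like for Bradi1g72610 and uncharacterized for Bradi3g36380, and not with the inferred ones. The expression values below belong to the identifiers and hold whichever name is right.

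The deposited values are RPM, the reads of a gene per 1000000 reads counted in its library. The 3 pruned libraries held 17278649, 28420464 and 26518230 reads, the last 2 totals inferred from a step smaller than any value in the library, and the 3 intact libraries held 21292543, 18790356 and 18150223 reads. The authors kept only R1 reads of pruned replicates 2 and 3 and both reads of a pair in the other 4 libraries, so pruned replicate 1 is the only pruned library with the read layout of the intact ones. Log2 fold changes set pruned roots over intact roots and were fitted with limma on log2(RPM + 0.5), where the added 0.5 lowers the change of weakly expressed genes. The fit gave a median log2 fold change of 0.04 over all genes. RPM are not divided by gene length, so levels of different genes are not compared. In bulk roots, fewer cells of a type and less RNA per cell cannot be told apart. Without gene descriptions for the other identifiers, the root label was not checked against marker genes.

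Of the 5 genes, 4 had more RPM in all pruned libraries than in any intact library, and 1, Bradi3g36380, had less. Over all genes, 56.0% had groups that did not overlap (33.4% with pruned roots higher and 22.7% with pruned roots lower), and since the contrast chose the 5 genes, nothing is read from this count. The rises lay between 0.67 and 1.09 on the log2 scale, and the fall was -0.78.

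Bradi5g08650, whose probable name is TIFY 9, showed the largest rise of the 5. It had 32.4, 34.7 and 34.1 RPM in pruned replicates 1 to 3, against 14.1, 16.9 and 15.9 RPM in intact replicates 1 to 3. The lowest pruned library was thus 15.5 RPM above the highest intact library, whereas libraries of one group differed by at most 2.78 RPM. The means were 33.7 ± 1.21 RPM in pruned roots and 15.6 ± 1.41 RPM in intact roots (SD, n = 3 each), a 2.16-fold ratio of means and a log2 fold change of 1.09 (standard error 0.07). By log2 fold change, 386 of the 19538 genes rose more.

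Bradi3g23190 is one of the neighbouring genes whose probable name is TIFY 3A-like. It had 15.0, 15.4 and 16.1 RPM in the pruned libraries and 7.47, 9.26 and 8.48 RPM in the intact libraries. The gap between the groups was 5.79 RPM, and the intact libraries spread over 1.79 RPM. Its mean was 15.5 ± 0.540 RPM in pruned roots and 8.40 ± 0.899 RPM in intact roots (SD, n = 3 each), with a log2 fold change of 0.85 (standard error 0.09).

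Bradi3g23180, the other gene of the pair, had 6.60, 8.48 and 8.07 RPM in the pruned libraries and 4.65, 4.68 and 3.58 RPM in the intact libraries. Pruned replicate 1 was the lowest of the pruned libraries, and the gap of 1.91 RPM to the intact libraries was about as wide as the spread of 1.88 RPM among the pruned libraries. The means were 7.72 ± 0.990 RPM in pruned roots and 4.30 ± 0.627 RPM in intact roots (SD, n = 3 each), and the log2 fold change was 0.78 (standard error 0.13). The libraries with R1 reads only averaged 1.25 times pruned replicate 1, the widest such difference of the 5 genes. With read layout as a term, which sets pruned replicate 1 alone against the intact libraries, the log2 fold change was 0.57 (standard error 0.17). The part of read layout in this difference was not tested.

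Bradi1g72610 had the fewest reads of the 5. By the chromosomes its probable entry is the uncharacterized one, although the study prints TIFY 6B-like beside it. It had 2.31, 2.29 and 2.41 RPM in the pruned libraries and 1.13, 1.76 and 1.05 RPM in the intact libraries. The pruned libraries lay close together, while intact replicate 2 stood well above the other two intact libraries and came within 0.531 RPM of the lowest pruned library. These values rest on few reads. Pruned replicate 1 held 40 reads of the gene (exact Poisson 95% interval 1.65 to 3.15 RPM), and intact replicate 2 held 33 reads (1.21 to 2.47 RPM), so these libraries cannot be told apart by their counting error, which is all that the intervals cover. The means were 2.34 ± 0.0664 RPM in pruned roots and 1.31 ± 0.388 RPM in intact roots (SD, n = 3 each). The ratio of the means was 1.79, as for Bradi3g23180. The log2 fold change was 0.67 (standard error 0.17), the smallest of the 4 rises in the fit of all 6 libraries. This rank depends on the fit. With read layout as a term, Bradi3g23180 rose less, with 0.57 against 0.66 for Bradi1g72610.

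Bradi3g36380, whose probable name is TIFY 6B-like although the study prints the uncharacterized entry beside it, was the gene that fell. It had 50.3, 51.8 and 53.2 RPM in the pruned libraries and 88.8, 91.9 and 87.0 RPM in the intact libraries. The highest pruned library was 33.7 RPM below the lowest intact library, and the libraries of a group differed by at most 4.91 RPM. The means were 51.8 ± 1.48 RPM in pruned roots and 89.2 ± 2.49 RPM in intact roots (SD, n = 3 each), a ratio of 0.580 and a log2 fold change of -0.78 (standard error 0.05). It was also the gene with the most reads, 869 in pruned replicate 1 and 1579 to 1890 in the intact libraries. By log2 fold change, 547 genes fell more.

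**Figure D1:**
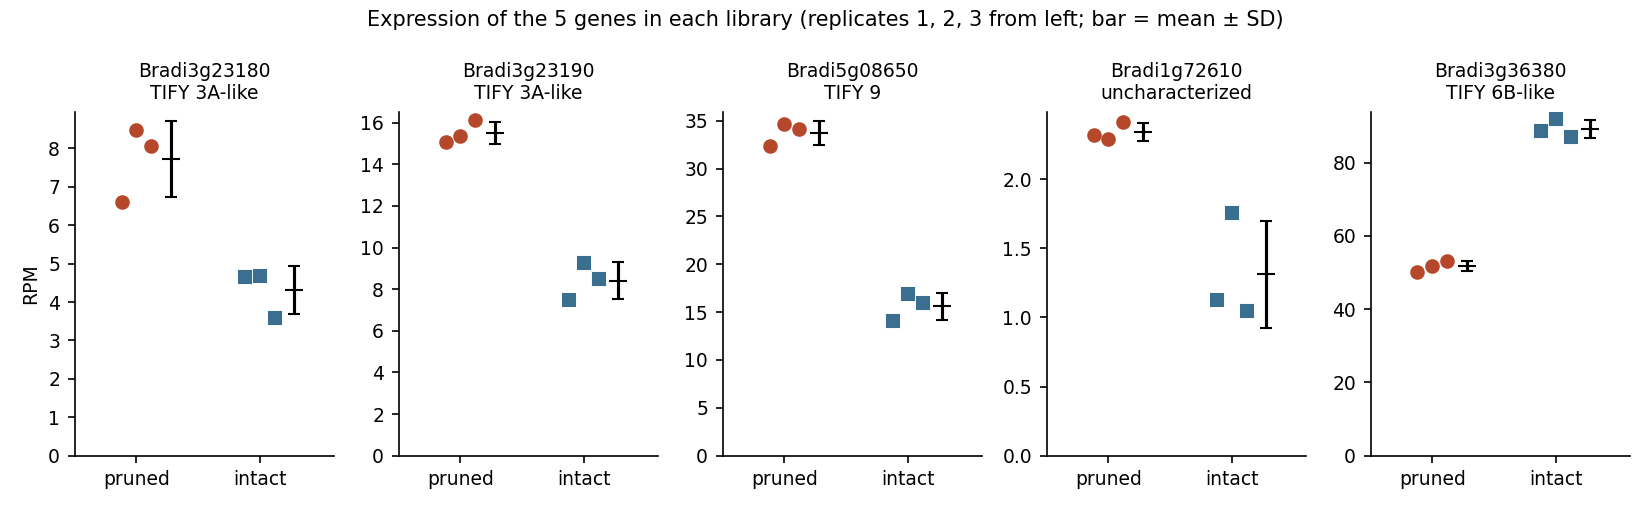
RPM of the 5 genes in each pruned library (circles) and each intact library (squares), with the mean ± SD of 3 libraries beside them. Pruned roots were above intact roots in 4 genes and below them in Bradi3g36380, and in none of the 5 genes did the groups overlap.

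Among the intact libraries, replicate 2 was the highest for 5 of 5 genes, both for those that rose and for the one that fell. Over all genes it was the highest intact library in 29.2%. Among the pruned libraries, replicate 1 was the lowest for 4 of the 5 genes, compared to 34.4% of all genes. Replicates of a group carry no order, and these counts are a description of the libraries.

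The changes were then compared within one read layout. With pruned replicate 1 alone against the 3 intact libraries, Bradi5g08650 had a log2 fold change of 1.03 (standard error 0.10), and Bradi3g23190 one of 0.81 (standard error 0.13). Bradi1g72610 had 0.66 (standard error 0.24), and Bradi3g36380 had -0.82 (standard error 0.07). All 5 genes kept their direction in this comparison, which was fixed in advance. Their groups did not overlap, so pruned replicate 1 already lay beyond every intact library. A single library has no spread of its own, so these standard errors come from the spread among the intact libraries, between the R1-only libraries and over all genes, and assume that pruned replicate 1 varies likewise. The values are a description.

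**Figure D2:**
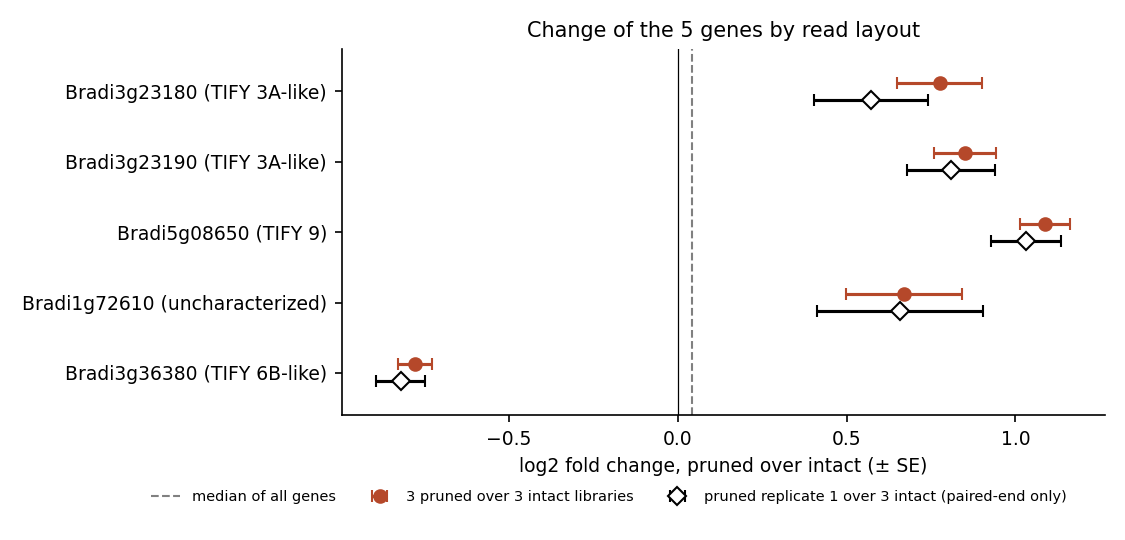
Log2 fold changes of pruned over intact roots with their standard errors, from all 6 libraries (circles) and from pruned replicate 1 alone against the intact libraries (diamonds), beside the median of all genes (dashed line). The 4 rises and the fall of Bradi3g36380 appear in both, and Bradi3g23180 moved most, to 0.57 from 0.78 over all libraries. The directions had to be the same in both, because the groups did not overlap.

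To contrast the gene that fell with those that rose, ratios were formed within each library, which leaves out differences in depth. The log2 ratio of Bradi3g36380 to the mean of the other 4 genes was 2.34, 2.27 and 2.30 in the pruned libraries and 3.998, 3.79 and 3.99 in the intact libraries. The groups did not overlap, and the difference of pruned from intact roots was -1.62 on the log2 scale (mean 2.30 ± 0.0353 in pruned roots and 3.92 ± 0.116 in intact roots, SD, n = 3 each). Gene length enters each ratio equally in both groups, so only this difference is compared and not the ratio itself. Against single genes, the difference of the log2 ratio was -1.87 with Bradi5g08650, -1.63 with Bradi3g23190, -1.55 with Bradi3g23180 and -1.45 with Bradi1g72610. None of these ratios overlapped between the groups. Bradi3g36380 was lower and each of the other 4 genes higher in all pruned libraries, so all these ratios had to separate. The differences restate the log2 fold changes of genes chosen on this contrast and add no evidence to them.

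The neighbours Bradi3g23180 and Bradi3g23190 had similar log2 fold changes, 0.78 and 0.85. Their log2 ratio within a library was -1.13, -0.82 and -0.95 in the pruned libraries and -0.63, -0.91 and -1.14 in the intact libraries. The groups overlapped, and the difference of -0.08 between their means was smaller than the SD of 0.155 among pruned and 0.255 among intact libraries. Its sign turned without pruned replicate 1 (0.0057) and without intact replicate 1 (0.057). With 3 libraries a group, this does not show that the genes changed equally. A shift of the ratio within this spread was not detectable.

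**Figure D3:**
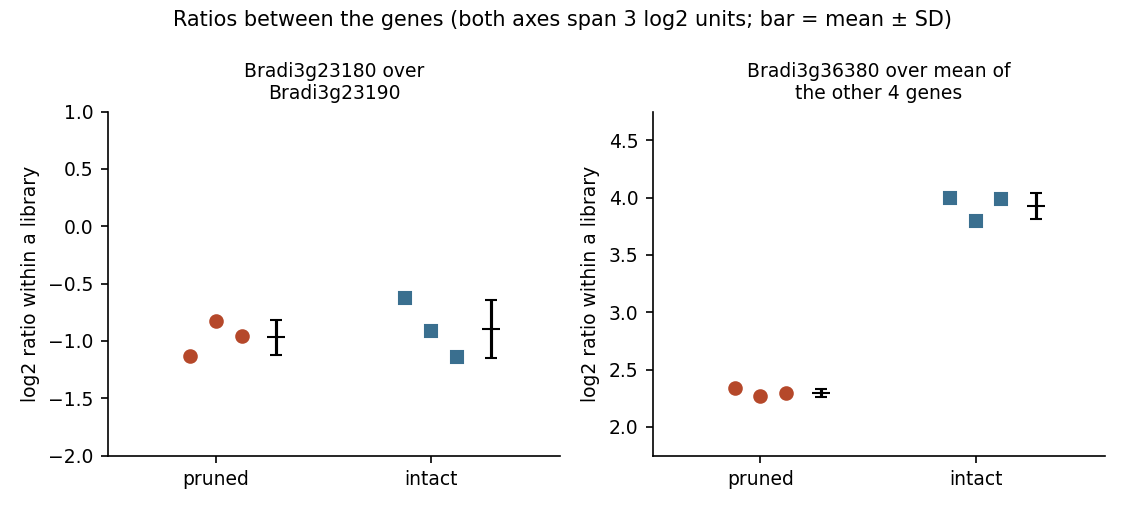
Log2 ratios within each pruned library (circles) and each intact library (squares) for the neighbouring pair (left) and for Bradi3g36380 over the mean of the other 4 genes (right), with mean ± SD of 3 libraries. The ratio of the pair overlaps between the groups, whereas that of Bradi3g36380 is lower in all pruned libraries. The latter follows from the opposite directions of the single genes.

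To examine whether genes next to the 5 also changed, the 2 listed genes on each side of every locus were taken in the order of their identifiers, with Bradi3g23180 and Bradi3g23190 as one locus. Genes that are not in the table may lie between them, and reads were counted without a stated strand setting. These 16 genes were not chosen for their change, and the limma test with Benjamini-Hochberg adjustment over all 19538 genes applies to them. The thresholds of the study's methods were used. A called gene thus had to change at least 1.5-fold and to have an adjusted p no higher than 0.05. The study's results instead describe its differentially expressed genes by a change of at least 2-fold. Of the 16 genes, 1 was called higher in pruned roots, 1 was called lower and 14 were not called. Without intact replicate 1, or without pruned replicate 3, 2 were called higher, the other being Bradi3g36357. Called genes thus made up 12.5% of them, compared to 13.1% over all genes (8.31% higher and 4.78% lower). By adjusted p alone, 30.1% of all genes were higher and 20.2% lower, and of the 16 genes 8 were higher and 2 lower. Their median absolute log2 fold change was 0.27, and that of all genes was 0.21.

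Beside the probable TIFY 3A-like pair, Bradi3g23167 lay on one side. It had 26.2, 27.6 and 26.9 RPM in the pruned libraries and 29.5, 28.2 and 27.7 RPM in the intact libraries. Its log2 fold change was -0.08 (adjusted p = 0.313, limma). Bradi3g23200 on the other side averaged 9.99 ± 0.0657 RPM in pruned roots and 7.92 ± 0.174 RPM in intact roots (SD, n = 3 each), a log2 fold change of 0.32 below the fold threshold (adjusted p = 0.00649, limma). Both changes were smaller than those of the pair, but the pair was chosen for its change and these genes were not, so nothing is read from this. The next gene out, Bradi3g23160, was called lower, with 783 ± 14.7 RPM in pruned roots and 1584 ± 14.1 RPM in intact roots (SD, n = 3 each), a log2 fold change of -1.02 (adjusted p = 1.17e-15, limma). It moved against the pair.

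Beside Bradi3g36380, Bradi3g36370 was called higher. It had 3.07, 2.85 and 2.53 RPM in the pruned libraries and 1.64, 1.22 and 1.43 RPM in the intact libraries, or 0.78 on the log2 scale by limma (adjusted p = 2.29e-04, standard error 0.16). The gene on the other side, Bradi3g36390, had a log2 fold change of 0.29 (adjusted p = 9.25e-05, limma), below the fold threshold. Both genes next to the falling gene were thus higher in pruned roots, the opposite direction. Next to Bradi5g08650, Bradi5g08637 and Bradi5g08662 had log2 fold changes of -0.09 and 0.39. Next to Bradi1g72610, Bradi1g72600 had 0.42 and Bradi1g72620 had -0.01, and none of these 4 genes was called.

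**Figure D4:**
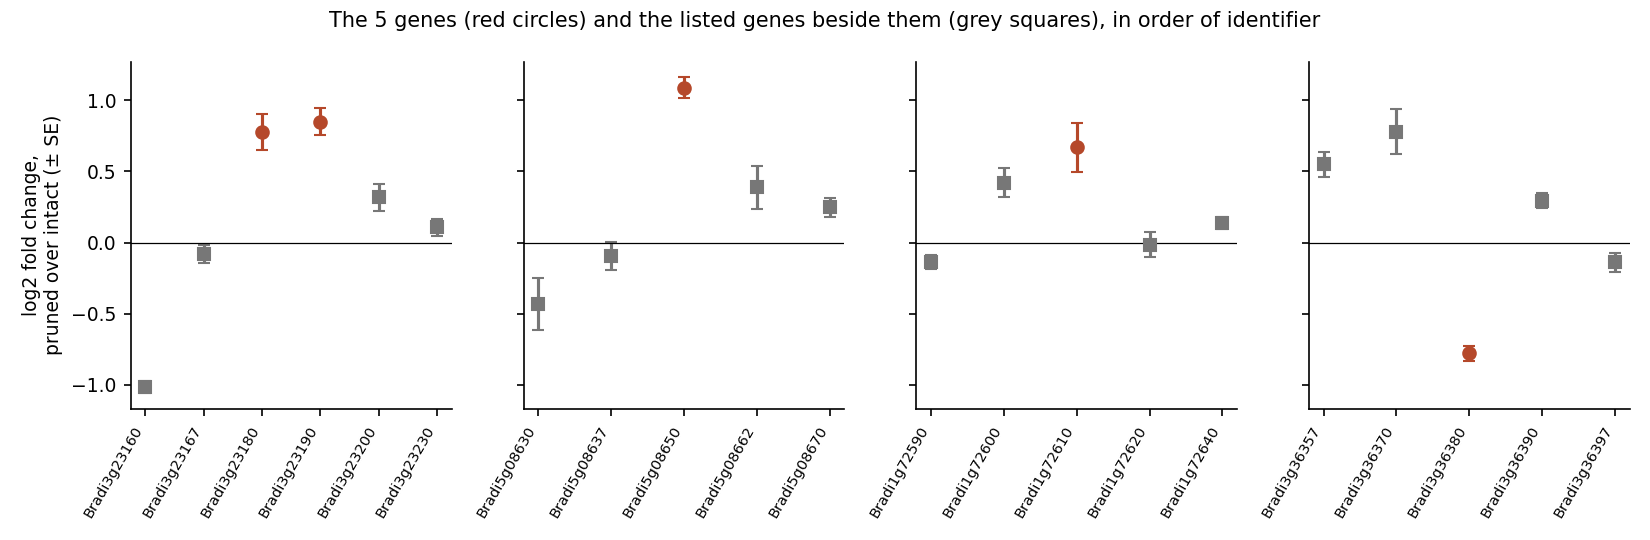
Log2 fold changes of pruned over intact roots with standard errors for the 5 genes (circles) and the 2 listed genes on each side of each locus (squares), in the order of their identifiers. Bradi3g23180 and Bradi3g23190 lie at 0.78 and 0.85, Bradi3g36380 at -0.78 has genes above 0 on both sides, and of the 16 neighbours Bradi3g23160 (-1.02) and Bradi3g36370 (0.78) lie farthest from 0.

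The wider jasmonate and wounding response was followed in 2 gene ontology lists of the study, response to jasmonic acid and response to wounding. Each holds 4 of the 5 genes, all but Bradi3g36380, and 8 others, and 5 of these others stand in both lists. The study drew the lists from genes it had found to differ in these libraries, so that most of them are called here follows largely from that choice. The counts and medians are no independent evidence of a direction. The tables do not pair these identifiers with reliable names, and no role is given for them. By the limma test over all genes, 6 of the 8 others under response to jasmonic acid were called higher in pruned roots, 1 was called lower and 1 was not called, where 8.31% of all genes were called higher and 4.78% lower. The 8 genes had a median of 0.97 on the log2 scale. Under response to wounding, 7 of the 8 others were called higher, 0 lower and 1 was not called, with a median of 1.03. The median over all genes was 0.04, and nothing is read from the distance to it. The 1 gene not called, Bradi3g06070, stands in both lists. It was lower in pruned roots by adjusted p alone, and was called lower by edgeR on the paired-end libraries and without intact replicate 1 or pruned replicate 2, which makes 2 lower genes under response to jasmonic acid and 1 under response to wounding.

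The 4 rising genes lay in the middle of these lists. Bradi2g41060 had the largest log2 fold change, 4.67. Bradi1g30020 came next with 2.44, from 21.6, 25.4 and 22.9 RPM in the pruned libraries and 3.76, 4.47 and 3.47 RPM in the intact libraries, and Bradi1g14370 and Bradi3g32350 followed with 1.56 and 1.23. At the other end, Bradi1g01170 had 65.4, 64.1 and 63.6 RPM in the pruned libraries and 362, 331 and 352 RPM in the intact libraries, a log2 fold change of -2.42. Bradi3g06070 had -0.58 and did not reach the fold threshold, although its 3 pruned libraries (166, 174 and 163 RPM) lay below its 3 intact libraries (240, 256 and 256 RPM). Within the jasmonate list, these 2 genes had lower RPM in all pruned libraries, the direction of Bradi3g36380.

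**Figure D5:**
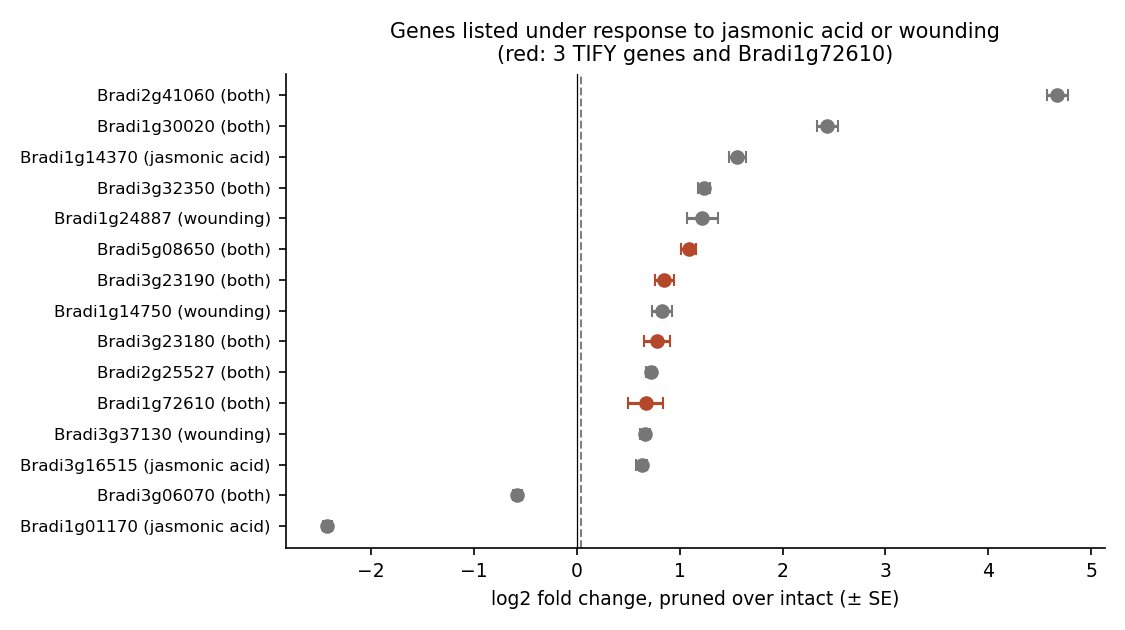
Log2 fold changes of pruned over intact roots with standard errors for the genes that the study lists under response to jasmonic acid, response to wounding or both, and the median of all genes (dashed line). Of the 5 genes, the 4 in these lists (all but Bradi3g36380) lie between 0.67 and 1.09, between Bradi1g01170 at -2.42 and Bradi2g41060 at 4.67.

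Finally, the genes whose pattern over the 6 libraries was most like that of each of the 5 were searched, by the Euclidean distance between log2(RPM + 0.5) values centred on the mean of each gene. The search covered 19375 other genes that averaged 1 RPM or more over the libraries, and the distances are a description without a test. For Bradi5g08650 the nearest were Bradi1g14170 (distance 0.0909, log2 fold change 1.13), Bradi1g74970 and Bradi2g39740. For Bradi3g36380 they were Bradi5g23150 (0.0592, log2 fold change -0.77), Bradi4g23180 and Bradi1g72150. For Bradi1g72610 they were Bradi1g36812 (0.0407, log2 fold change 0.66), Bradi3g18977 and Bradi1g00253.

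The neighbours had different nearest genes. For Bradi3g23190 these were Bradi2g07780 (distance 0.107, log2 fold change 0.89), Bradi2g06670 and Bradi1g66296, and for Bradi3g23180 they were Bradi2g34300 (0.107, log2 fold change 0.75), Bradi4g08522 and Bradi2g44520. Seen from Bradi3g23190, Bradi5g08650 ranked 305 (distance 0.300) and its neighbour Bradi3g23180 ranked 986 (distance 0.432). Seen from Bradi3g23180, Bradi3g23190 ranked 612 and was the nearest of the other genes of the group, just ahead of Bradi1g72610 at 625. Many genes were therefore closer in pattern to each of the pair than the pair were to each other, and Bradi3g23190 was nearer to Bradi5g08650 than to its own neighbour. At 65 to 99 reads in the intact libraries, counting error adds to the distances of Bradi3g23180. The difference between pruned replicate 1 and the R1-only libraries, widest for Bradi3g23180 among the 5 genes, enters them too. The part of read layout in these ranks was not tested.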

How the data were processed

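As the paper describes, the authors removed adapters and low-quality ends (SolexaQA, cutadapt), aligned the reads by TopHat and counted uniquely mapped reads per gene. HTSeq is named in the submitters' processing notes. The strand setting is not given in the sources used here. The study tested with edgeR. The deposited unit is RPM, which sum to 1000000 in each library. In the 4 paired-end libraries all values (100%, within 0.01 of a read) were whole multiples of the smallest, which gave the reads. In pruned replicates 2 and 3 the smallest value was 4 and 2 reads. Genes needed 0.5 RPM in 3 libraries, which removed none of the 19538 genes. limma 3.58.1 in R 4.3.3 (lmFit, eBayes with trend) was fitted on log2(RPM + 0.5), two-sided, with Benjamini-Hochberg adjustment. The fit was first tried on simulated data with the same dispersion for all genes and no difference in read layout. That trial therefore does not cover the read layout of these libraries. Figures used Python 3.11.15 with matplotlib 3.10.9. Alternatives were other pseudocounts, filters, scalings and thresholds, limma without trend, read layout or replicate number as a term, each library left out, and edgeR 4.0.16 (quasi-likelihood, TMM) on the 4 paired-end libraries. The last, and all alternatives for the genes beside the loci, were added after seeing the data. The genes and lists were chosen with earlier results of these data known. Named are the 5 genes, the 2 listed genes on each side, the genes with the nearest 3 patterns, and examples from the gene ontology lists. Lists by gene name were not made, because 0 of the 19538 identifiers matched the RefSeq table (assembly Brachypodium_distachyon_v3.0). The third list of the study, regulation of jasmonic acid mediated signaling, holds only 4 of the 5 genes and was not tested. ICP-MS, pH, qRT-PCR and shoot data were not analysed here. The paper also measured Bradi5g08650 by qRT-PCR in roots and shoots. It reports that the genes measured in that way had patterns like those of its RNA sequencing. No sequences were used.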

Additional observations from a re-analysis of the deposited data

How the results depend on the processing

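Each of the 5 log2 fold changes was recomputed under 16 alternatives, and none of the 80 values changed direction. For most alternatives this was fixed in advance. The groups of the 5 genes did not overlap, so pseudocounts, read layout as a term or a library left out could not turn a sign. The filters, limma without trend and the replicate block left the values as they were. Only the scalings and edgeR could have turned a direction. The values ran from 0.99 to 1.14 for Bradi5g08650, 0.77 to 0.92 for Bradi3g23190, 0.55 to 0.88 for Bradi3g23180, 0.54 to 0.84 for Bradi1g72610 and -0.88 to -0.76 for Bradi3g36380. Of the 80 values, 6 moved by more than the SD between replicates. For Bradi3g23180 these were 0.57 with read layout as a term and 0.55 with edgeR on the paired-end libraries. For Bradi3g36380 they were -0.83 with median-ratio scaling, -0.82 with quantile normalization, -0.82 with read layout as a term and -0.88 with edgeR. The log2 ratio of the neighbours turned to 0.057 without intact replicate 1 and to 0.0057 without pruned replicate 1. Over the libraries left out in turn it ran from -0.20 to 0.057. The other ratio kept its direction.

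Bradi3g06070 lay at the fold threshold. The genes called lower were 2 under response to jasmonic acid and 1 under response to wounding with median-ratio scaling, with read layout as a term, with edgeR and with no fold threshold, and over the libraries left out they were 1 to 2 and 0 to 1. With a threshold of 2-fold, 4 genes were called higher under response to wounding and 4 under response to jasmonic acid. The jasmonic acid count was 5 with median-ratio scaling, with read layout as a term and with edgeR. Beside the loci, 8 genes were called higher and 2 lower with no fold threshold, and 0 higher at 2-fold. Over the libraries left out, 1 to 2 were called higher, and the count was 2 without intact replicate 1 or pruned replicate 3. Over all genes, 1624 were called higher and 933 lower. The numbers were 5889 and 3941 with no fold threshold, and 496 and 337 at 2-fold. With replicate number as a block (replicate block), 1630 genes were called higher and 934 lower, and the counts in both lists and beside the loci were the same. Deviations from the group means had correlations of -0.03, 0.20 and 0.08 between same-numbered libraries. Between libraries of different number they ran from -0.21 to 0.12. With 3 libraries a group, these values cannot tell whether the numbers pair the libraries. The planned edgeR and DESeq2 fits on all 6 libraries were left out by choice. They need the reads of pruned replicates 2 and 3, which follow only from an inferred step, since the smallest value there is 4 and 2 reads. The edgeR fit on the paired-end libraries has 1 pruned library, assumed to vary like the intact ones. The cause of these shifts was not tested. Depth limits Bradi1g72610 most, at 19 to 40 reads in the paired-end libraries.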
